A study of Mus musculus with 18 samples.

Results

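A small population of cells carrying transcripts of leukocyte genes was examined in single mouse embryos at E8.5, the onset of organogenesis, when erythroid cells are already present. Members were chosen from the counts themselves: every cell with 3000 or more mouse UMIs (unique molecular identifiers, each standing for 1 captured transcript) that had at least 1 UMI for 4 or more of 7 genes, Tyrobp, Fcer1g, Ptprc, Coro1a, Csf1r, Laptm5 and Cx3cr1. This gave 158 members out of 105556 cells, or 0.150%, and 152 distinct cells once a pair of libraries that shared barcodes was accounted for. The 18 libraries were from 7 wildtype (WT) embryos and from embryos null for Dnmt1 (3 libraries), Dnmt3a (4) and Dnmt3b (4, of which 2 were counted as 1), named Dnmt1 KO and so on, all on the 129S4/SvJae background and each lacking 1 DNA methyltransferase or none. Embryos came from matings of heterozygous mice, were genotyped from the ecto-placental cone and were profiled whole, 1 embryo per library, so that the tissue a cell came from was not recorded.

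Macrophages of the early embryo arise in the yolk sac, from primitive progenitors and from erythro-myeloid progenitors that bud from haemogenic endothelium and still carry endothelial and stem cell transcripts such as Cdh5, Kit and Cd34. They need the transcription factor Spi1 (PU.1) and the receptor Csf1r, and on maturing they gain Cx3cr1, the mannose receptor Mrc1, the surface protein Adgre1 (F4/80) and complement C1q. Dnmt1 copies DNA methylation at replication and Dnmt3a and Dnmt3b set it de novo, and methylation keeps many germline genes and 1 allele of imprinted genes silent in somatic cells.

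The libraries held 1321 to 9849 cells at this depth, with median UMIs per cell from 7289 to 59422. The libraries Dnmt3b KO 1 and 2 had 12249 barcodes in common (86.5% and 79.3% of their own), and the next of the 153 library pairs had 133 in common. All 17 members of the first and all 11 of the second had their barcode in the other library at 1500 or more UMIs, and 6 barcodes were members in both. These 2 libraries were therefore counted as 1 wherever groups were compared (Dnmt3b KO, n = 3). Summed over 4 Y-linked genes, 11 libraries lay at 91.8 or more CPM (UMIs of a gene per 1000000 UMIs) and the other 7 at 0.140 or less, with among the first WT 2 and all KO libraries except Dnmt3b KO 12. Since 6 of 7 WT embryos and 1 KO embryo lacked Y-linked RNA, sex and genotype cannot be told apart for most of the contrasts below.

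The members did not form 1 kind of cell (see the plot of Lyz2 against depth). They were split after their values had been seen, so the sets carry no test. Lyz2, the lysozyme of myeloid cells, was at 300 CPM or more in 29 members, here called Lyz2-high. Of those under this level, 120 had UMIs for at least 2 of 7 endothelial markers (Cdh5, Pecam1, Kdr, Emcn, Cldn5, Esam and Tie1) and are called endothelial-marker members, and 9 had neither. Counted once per barcode these were 27, 117 and 8 cells, and counts of cells below include both copies unless called distinct. Lyz2 ranged from 482 to 35592 CPM in the Lyz2-high cells and from 0 to 169 CPM in the endothelial-marker cells, with 12 members between 100 and 1000 CPM.

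**Figure D1:**
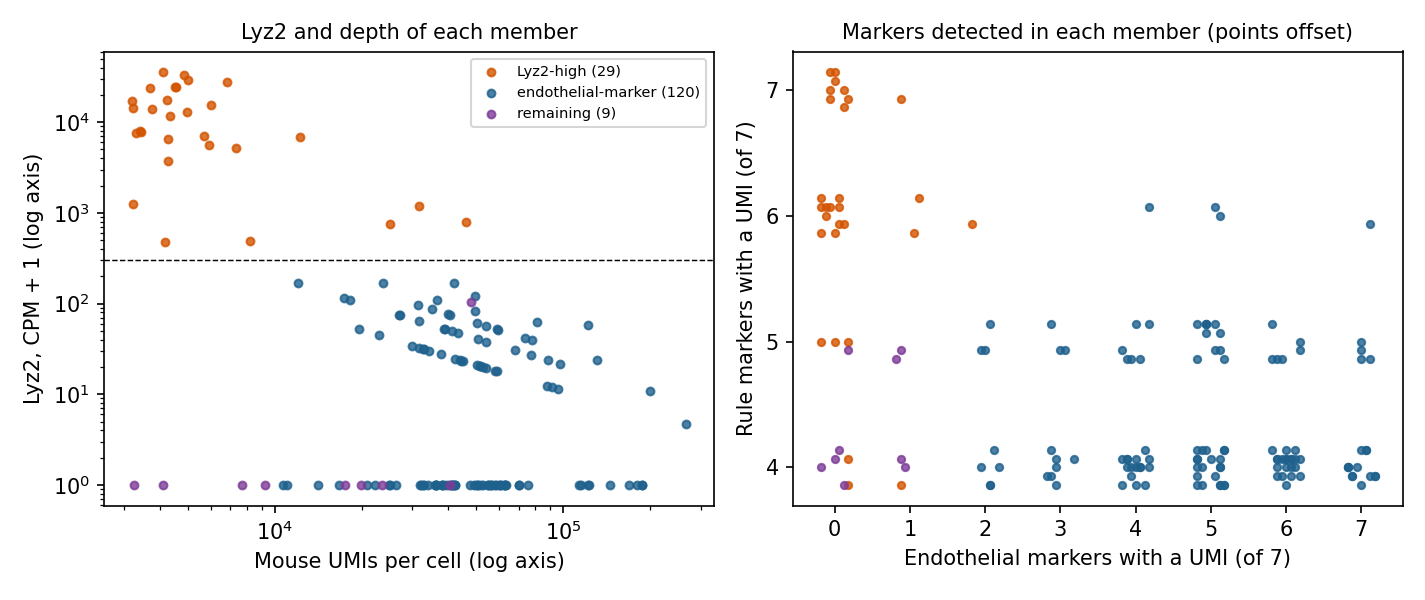
Left, Lyz2 (CPM + 1, log axis) against mouse UMIs (log axis) for each of the 158 members, coloured by set, with the dashed line at 300 CPM; right, the number of the 7 rule markers against the number of 7 endothelial markers with a UMI, with points offset to be seen. The 29 Lyz2-high cells were mostly shallow (median 4515 UMIs) and carried up to 7 rule markers, while most of the 120 endothelial-marker cells had 4 rule markers at a median of 49331.5 UMIs.

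The 2 larger sets met the rule in different ways. The Lyz2-high cells held a median of 6 of the 7 rule markers at a median depth of 4515 UMIs, and the endothelial-marker cells held a median of 4 at 49331.5 UMIs. After every cell was thinned to 3000 UMIs, the medians were 5 and 1. Ptprc (CD45), a tyrosine phosphatase of leukocytes, had a UMI in 28 of 29 Lyz2-high cells and in 12 of 120 endothelial-marker cells. Csf1r, the receptor for macrophage colony stimulating factor, was seen in 18 and in 45 cells, and Cx3cr1, the fractalkine receptor, in 16 and in 1. By contrast Fcer1g, the shared signalling chain of Fc receptors, was seen in 29 and in 119 cells, and Coro1a, an actin regulator of leukocytes, in 28 and in 120. Among the other 105398 cells these genes had a UMI in 0.0104% (Ptprc) to 4.72% (Coro1a). These values chose the cells and are given as a description.

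Cells at the edge of the rule were of the second kind. The 92 members with exactly 4 markers and the 220 cells with 3 had similar depth, at medians of 44108.5 and 42540.5 UMIs, and 83 and 196 of them were endothelial-marker cells. The 2 sets of cells differ in the rule markers by construction, and the share with a UMI of Tyrobp, the adaptor of activating myeloid receptors, was 85.9% just inside the rule and 21.4% just outside it.

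The endothelial-marker members carried progenitor and endothelial transcripts together. Spi1 was seen in 112 of 120 cells at 95.9 CPM over the pooled counts, Runx1, which is needed for blood to form from endothelium, in 108 at 99.2 CPM, and Tal1, an early blood regulator, in 104. The stem cell antigen Cd34 had a UMI in 115 cells (180 CPM), the integrin Itga2b (CD41) in 111, the receptor Kit in 92 and the transcription factor Myb in 88. In the same cells the endothelial cadherin Cdh5 was seen in 106 and the VEGF receptor Kdr in 110. All but 1 had at least 1 of 7 erythro-myeloid progenitor markers and 80 had 4 or more. Of 7 megakaryocyte markers, among them Itga2b, 115 cells had at least 1 and 14 had 4 or more. Much of this rested on depth: after thinning to 3000 UMIs the median was 1 of 7 for the progenitor list (4 unthinned), 1 of 7 for the endothelial list (5 unthinned) and 0 of 7 for the megakaryocyte list (2 unthinned). Receptors of the granulocyte and monocyte lines were found in fewer cells, with Csf3r in 53, the complement receptor C5ar1 in 36 and the granule enzyme gene Mpo in 43.

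Of 26 macrophage receptors and surface proteins, 118 of the 120 endothelial-marker cells had at least 1 and 70 had 4 or more, with a median of 4, which was 0 after thinning to 3000 UMIs. A complement gene was seen in 54 cells. The genes named next were picked after their values were seen. Mrc1 was seen in 31 of 120 cells at 24.9 CPM and Lyve1, a hyaluronan receptor of yolk sac macrophages and of endothelium, in 65 at 235 CPM. The cathepsin gene Ctss, the oxidase subunit Cybb, the cytokine Il1b, Adgre1, C1qa and Timd4 had no UMI in any of the 120 cells, although these cells were the deeper ones, and C1qb was seen in 12 cells. If the cells were independent, a count of 0 in 120 would allow up to 2.50% of such cells to have a UMI. However, 117 were distinct and many shared an embryo, so no general limit is read. Proliferation genes were widespread, with a median of 15 of 16 DNA replication genes and 16 of 16 mitosis genes per cell, against 2 and 2 in the shallower Lyz2-high cells. After thinning to 3000 UMIs these medians were 5 and 6 against 1 and 1. Genes of other cell types were also found. All 120 cells had a globin UMI and 85 had 4 or more of 7 globins, at a summed level of 18.0 to 61483 CPM with a median of 380 CPM. A mesenchyme marker was seen in 90 cells, an extraembryonic endoderm marker in 63 and a neural marker in 17, and 7, 2 and 0 cells had 4 or more of the 7 in each list. Their part in the results was not tested.

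Monocyte genes were found in the Lyz2-high members to a differing degree. Of 7 adult monocyte markers (Ccr2, Ly6c2, Chil3, Plac8, Fn1, Cd209a and Itgax) these cells had UMIs for a median of 3, also after thinning to 3000 UMIs, and 14 of 29 had 4 or more. Of those 14 cells, 11 were among the 14 of Dnmt3b KO, and 1 each was among the 9 of WT, the 2 of Dnmt1 KO and the 4 of Dnmt3a KO. Cells are not replicates of a genotype here: 13 of the 14 Dnmt3b KO cells were in the 2 libraries counted as 1, and 12 of the 14 were distinct, so these counts are mainly those of 1 embryo and no difference between genotypes is read from them. No endothelial-marker cell had 4 or more, and their median was 1. The genes named next were picked after their values were seen. Ctss was seen in 28 of 29 cells (1206 CPM), Cybb in 25 and the high-affinity IgG receptor Fcgr1 in 18. Ly6c2 and the chemokine receptor Ccr2, which mark inflammatory monocytes of later life, were seen in 22 and 19, and Chil3 in 14. Il1b reached 1081 CPM and was seen in 25 cells. Of 7 MHC class II genes these cells had a median of 2, and of 1 after thinning, with 4 or more in 11 of 29 and none in 3. Their summed level had a median of 1107 CPM and reached 71342 CPM in 1 cell, so that pooled values rest on few cells. The invariant chain Cd74 was seen in 23 cells and H2-Aa in 13, whereas H2-Aa had no UMI in the 120 endothelial-marker cells. Interferon-induced genes were also present, with Isg15 in 24 cells and Irf7 in 23. Among the other cells of the embryos, pooled over all libraries, Ly6c2, Ccr2, Chil3 and Il1b each had a UMI in at most 0.0313%. Free RNA was not measured. A globin UMI was seen in 24 of 29 Lyz2-high cells, at a median summed level of 652 CPM, and an erythroid marker in 0 of 29. The part of free RNA in these values was not tested.

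Macrophage genes differed among themselves in the Lyz2-high cells, and progenitor genes were nearly absent. Of 26 macrophage receptors and surface proteins, 24 of 29 cells had 4 or more, with a median of 6 and, thinned to 3000 UMIs, of 4. A complement gene was seen in 12 cells. Kit, Myb and Gata2 had no UMI in any of the 29 cells, and Cd34 was seen in 1. If the cells were independent, 0 of 29 would allow up to 10.3% of such cells to have a UMI. They were not, since 27 were distinct and 10 and 3 were in the 2 libraries counted as 1, so no general limit is read. Adgre1 was seen in 5 cells, C1qb in 1, and Mrc1, Timd4 and C1qa in none. One cell of WT 7 carried the neutrophil genes S100a8 and S100a9, with 249 UMIs of the first. By the summed level of 3 myeloid lists the Lyz2-high cells lay above the endothelial-marker cells. Their median summed level of 23 lysosome and phagocytosis genes, a list that holds Lyz2 itself, was 20879 against 1260 CPM, with a median of 16 and 13 genes seen. The medians were 1865 against 147 CPM for the macrophage receptors and 3856 against 765 CPM for 12 myeloid transcription factors. Of the macrophage markers that the rule did not use, Adgre1, C1qa and Timd4 were at 0 in the endothelial-marker cells, and C1qa and Timd4 also in the Lyz2-high cells. Other markers went the other way. In the endothelial-marker cells 8 of the 26 macrophage receptors and surface proteins were at 0, while 118 of 120 cells had at least 1 and 70 had 4 or more. Lyve1 and Mrc1 were among those seen. The label of yolk sac macrophages thus met its markers in part only, and the sets are called here by their genes.

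**Figure D2:**
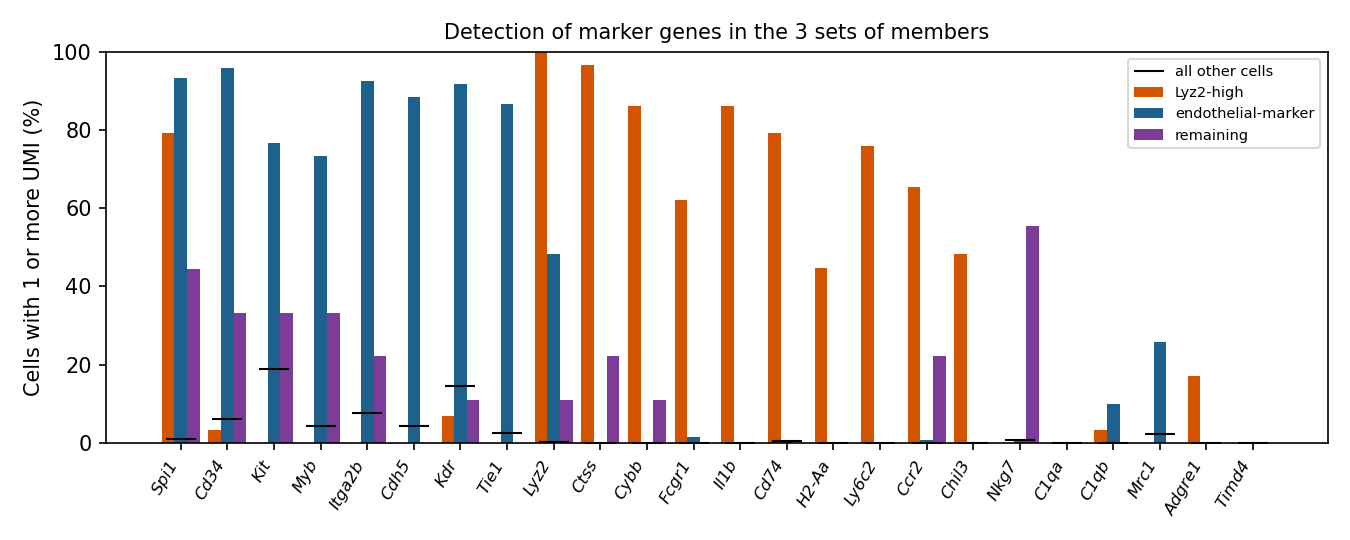
Share of cells with 1 or more UMI (%) for 24 genes in the 29 Lyz2-high, 120 endothelial-marker and 9 remaining members (bars), with the black marks giving all other cells. Progenitor and endothelial genes from Cd34 to Tie1 were seen mainly in the endothelial-marker cells. The genes from Ctss to Chil3 were seen mainly in the Lyz2-high cells, and C1qa and Timd4 in no set. Spi1 was not particular to 1 set, with a UMI in 93.3% of the endothelial-marker cells and in 88.0% of all members.

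The sets were spread unevenly over embryos. Endothelial-marker cells came from all 18 libraries, with 45 from WT embryos and 8, 42 and 25 from the Dnmt1, Dnmt3a and Dnmt3b KO groups. Lyz2-high cells came from 10 libraries: 9 were from WT, 2 from Dnmt1 KO, 4 from the single library Dnmt3a KO 2, and 14 from Dnmt3b KO, of which 10 and 3 were in the 2 libraries with shared barcodes. None of the 9 remaining cells was from WT.

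Xist, the long RNA that coats the inactive X chromosome of female cells, separated the sets further. In the 11 libraries with Y-linked RNA, 16 of 23 Lyz2-high cells had a Xist UMI (69.6%) and 5 had a UMI of the 4 genes used to mark the Y chromosome (Uty, Kdm5d, Eif2s3y, Ddx3y), each of these 5 also with Xist. Counted once per barcode, 14 of 21 had Xist (66.7%) and 4 had Y-linked UMIs. In the same libraries 3 of 70 endothelial-marker cells had Xist and 64 had Y-linked UMIs. Other cells of these libraries with a UMI count of 4 digits from 3000 on, a depth like that of most Lyz2-high cells, had Xist in 0.393% and Y-linked UMIs in 35.3% of 22892. Over the pooled counts, Xist was at 285 CPM in the Lyz2-high cells and 11.1 in the endothelial-marker cells, and Y-linked RNA at 61.5 and 98.2 CPM. In the 7 libraries without Y-linked RNA, 6 of 6 Lyz2-high cells and 49 of 50 endothelial-marker cells had Xist. Xist was also more frequent in the Dnmt1 KO libraries as a whole, at 6.30% to 14.5% of their cells, against at most 1.69% in the other libraries with Y-linked RNA. Without the Dnmt1 KO libraries, 0.262% of the other cells at the matched depth had Xist. Whether the Lyz2-high cells were of the embryo or of the mother was not tested. If cells were not the embryo's own, the genotype of their library would not be theirs, which bears on the member shares and on each value given by KO group for these cells.

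**Figure D3:**
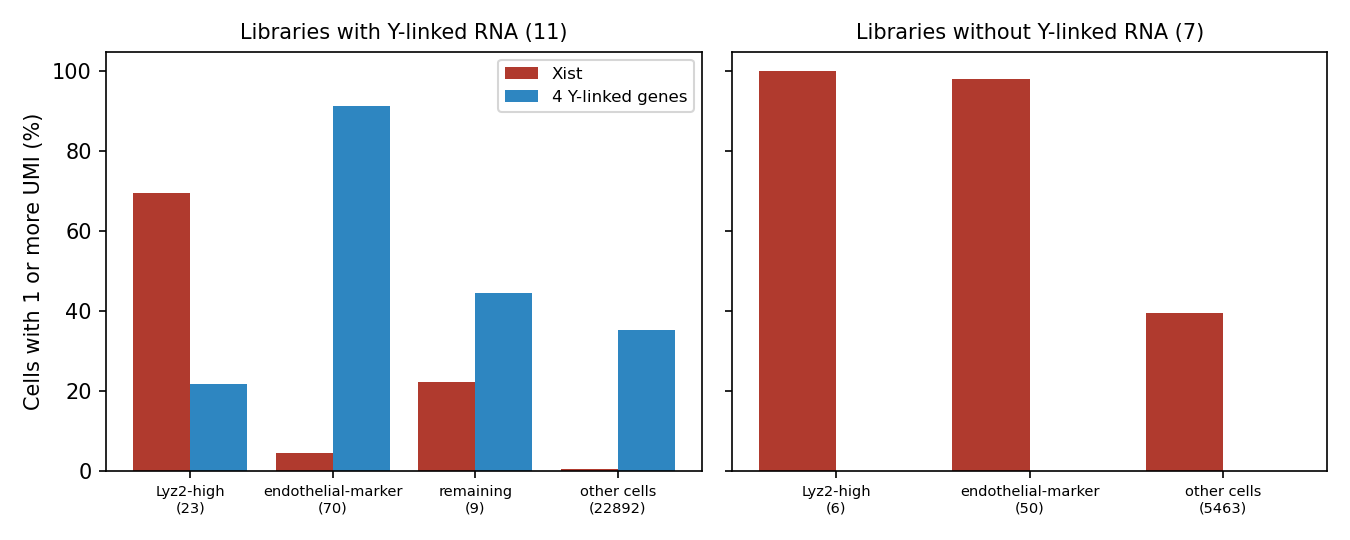
Share of cells with 1 or more UMI (%) of Xist (red) and of 4 Y-linked genes (blue) in each set of members and in other cells at a matched depth (4-digit UMI counts from 3000 on), for the 11 libraries with and the 7 without Y-linked RNA, with cell numbers in parentheses. In the libraries with Y-linked RNA, Xist was seen in 69.6% of the Lyz2-high cells and 0.393% of other cells, and Y-linked RNA in 91.4% of the endothelial-marker cells.

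A few members stood apart by granzymes, the proteases of cytotoxic granules. All 6 of Gzmb, Gzmc, Gzmd, Gzme, Gzmf and Gzmg were found together in 5 members, a count set by values already seen. Of these, 2 were in Dnmt1 KO 1, with 2467 and 4296 granzyme UMIs out of 23558 and 17448, and 1 was in Dnmt3a KO 2, with 6880 of 41008. The others were 1 barcode found in both Dnmt3b KO 1 and 2, with 448 of 7708 and 289 of 4088. All 5 had the pore-forming protein gene Prf1 and the granule gene Nkg7. No Y-linked UMI was found in any of them, although each was from a library with Y-linked RNA, and 1 had 18 Xist UMIs. Their origin was not tested either, and the same limit applies to their genotype. Spp1 (osteopontin) was at 251, 152, 519, 9 and 4 UMIs. The granzyme cell of Dnmt3a KO 2 had UMIs for 2 endothelial markers and so was counted with the endothelial-marker set. Gzma was not among the 6 granzymes counted. Of the 2 cells of the remaining set in Dnmt3a KO, 1 had 62 UMIs of Gzma and 16 of Nkg7 and no UMI of those 6. It is not counted with the granzyme cells here, and its origin was not tested.

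The members were then compared between genotypes, starting with how many there were. The share of members among cells with 3000 or more UMIs was 0.157% ± 0.0703 (SD, n = 7) for WT embryos. The Dnmt1 KO embryos had 0.211% ± 0.182 (SD, n = 3), the Dnmt3a KO embryos 0.149% ± 0.0558 (SD, n = 4) and the Dnmt3b KO embryos 0.130% ± 0.0595 (SD, n = 3). Single libraries ran from 1 member in 3120 cells, or 0.0321% (95% Clopper-Pearson interval 0.000811 to 0.178), in Dnmt1 KO 2 to 6 in 1515, or 0.396% (0.145 to 0.860), in Dnmt1 KO 1. These intervals cover counting error only. Both extremes were embryos of 1 group, and the groups overlapped.

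No KO group differed from WT in this share beyond the spread between embryos. The difference in mean log2 share was 0.10 (SE 0.97) for Dnmt1 KO, by an exact two-sided permutation test with p = 0.908. It was −0.08 (SE 0.39) for Dnmt3a KO, exact permutation p = 0.833, and −0.33 (SE 0.53) for Dnmt3b KO, exact permutation p = 0.567. All 3 had a Benjamini-Hochberg adjusted p of 0.908, in designs whose smallest possible p was 0.00833, 0.00303 and 0.00833. A p of this size does not show that the shares were alike. The sign of each difference turned with 1 embryo left out, with ranges of −0.58 to 0.99, −0.29 to 0.18 and −0.58 to 0.13 in the same order, and 12 of 60 alternatives reversed it. It turned without WT 4, Dnmt1 KO 1 or Dnmt1 KO 3 for Dnmt1 KO, without WT 1, WT 5 or Dnmt3a KO 14 for Dnmt3a KO, and without Dnmt3b KO 11 for Dnmt3b KO.

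**Figure D4:**
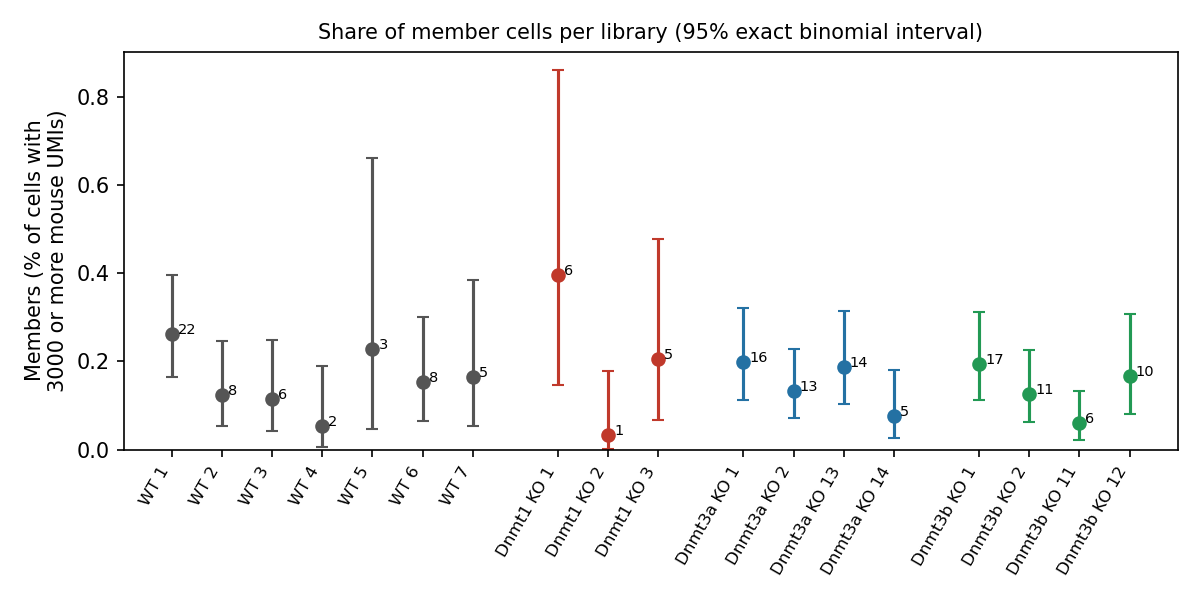
Members as a percentage of cells with 3000 or more mouse UMIs in each of the 18 libraries, with 95% exact binomial intervals and the number of members beside each point. The groups overlap, and Dnmt1 KO embryos give both the lowest (0.0321%) and the highest (0.396%) share.

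Gene expression was compared on counts summed over the members of each embryo, so these sums mix the sets above, and fewer cells with a transcript cannot be told apart from less of it per cell. A minimum of 10 members per embryo had been planned. It kept 1 WT, 3 Dnmt3a KO and 2 Dnmt3b KO embryos and no Dnmt1 KO embryo, and edgeR's quasi-likelihood test called 0 of 7540 genes in either comparison (percent called 0 in both) with the limits set at 0.01 for the adjusted p and 1 for the size of the log2 fold change. At an unadjusted p under 0.05 there were 217 genes for Dnmt3a KO and 401 for Dnmt3b KO, and DESeq2 called 1 and 2. With 1 WT embryo this fit rests on its spread being like that of the KO embryos. All values below are from a second fit, chosen after the member numbers had been seen, on every embryo with a member (7 WT embryos and 3, 4 and 3 of the KO groups, 5487 genes tested).

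The targeted genes came first, as CPM in the summed members. Dnmt1 was at 31.5 to 166 CPM in WT with a median of 105.5, and at 22.8, 10.96 and 29.96 in Dnmt1 KO, below every WT embryo. Its log2 fold change was −1.91 (SE 0.39), with an edgeR adjusted p of 0.0114 that missed the threshold. Dnmt3a was at 14.3 to 45.4 CPM in WT with a median of 27.4, and at 9.56, 9.23, 5.20 and 5.34 in Dnmt3a KO, also below every WT embryo, at −1.68 (SE 0.55) and an edgeR adjusted p of 0.968. Dnmt3b overlapped, at 96.1 to 204 CPM in WT and 119, 237 and 150 in Dnmt3b KO. The counts come from the 3′ ends of transcripts, so RNA of an allele that lacks an upstream part would still be counted.

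Dnmt1 KO members differed from WT in 36 genes (0.656% of those tested), with 22 higher (0.401%) and 14 lower (0.255%), and 986 had an unadjusted p under 0.05. Only 12 members, in 3 embryos, were behind these values, 8 of them endothelial-marker cells. There were 6, 1 and 5 in Dnmt1 KO 1, 2 and 3, so each value of Dnmt1 KO 2 is that of 1 cell. Those of Dnmt1 KO 1 included 1 Lyz2-high cell and 2 granzyme cells, whose origin was not tested.

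Rpl39l, a ribosomal protein gene of the testis (GRCm38, chr16:10170226-10174911, plus strand), had no UMI in any WT embryo. It was at 207, 132 and 203 CPM in the Dnmt1 KO embryos, at least 176-fold higher than the level that 3 counts over the WT group would give, or 102-fold with the floor set without WT 1, the largest of its libraries. The fitted log2 fold change, which for such a gene depends on the prior count, was 9.43 (SE 0.74, edgeR adjusted p = 1.59e-05). Reads from its X-linked parent Rpl39 could in principle be split between the copies. Sycp1, a protein of the synaptonemal complex of meiosis (chr3:102818499-102936100, minus strand), was also at 0 in all 7 WT embryos and at 55.6, 175 and 107 CPM in Dnmt1 KO, at least 84.4-fold higher by the same measure (48.8-fold without WT 1). Tex19.1, which restrains retrotransposons in germ cells and placenta, was at 0 in 4 WT embryos and at most 12.5 CPM in the others, against 86.0, 87.7 and 108 in Dnmt1 KO (log2 fold change 5.12, SE 0.71, edgeR adjusted p = 0.000733). None of these 3 genes overlapped between the groups, but a lack of overlap was part of the rule by which called genes were named. It is a description and no further support.

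The meiotic recombination gene Mnd1 lay at 14.4 to 27.6 CPM in WT and at 73.3, 32.9 and 107 in Dnmt1 KO. Slc25a31, the ADP/ATP carrier of sperm, was called too (4.73, SE 0.82, edgeR adjusted p = 0.00412) but overlapped, at 0 to 3.94 CPM in WT and 20.2, 0 and 37.1 in Dnmt1 KO. Of 34 germline genes listed, 4 passed the filter on low counts. A gene at or near 0 in WT could pass it only through KO groups in which it was high, so the number called among these 4 is not read against the 0.401% of all genes called higher. They were Rpl39l, Sycp1 and Slc25a31, described above, and Sohlh2. Sohlh2, a transcription factor of early germ cells, was not called, at a log2 fold change of 7.15 with an edgeR adjusted p of 0.0419.

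The X-linked genes Trap1a, Rhox5 and Gm21887 were among those called higher. Trap1a, a tumour antigen gene of the trophoblast (chrX:139333683-139338169, plus strand), was at 0 to 5.55 CPM in WT and at 288, 428 and 389 in Dnmt1 KO (log2 fold change 6.99, SE 0.76, edgeR adjusted p = 2.44e-05). Rhox5, a homeobox gene, was at 3.94 to 24.1 CPM in WT and at 319, 811 and 380 in Dnmt1 KO. Gm21887, in the pseudoautosomal region and so similar to other copies that its reads may be shared, was at 0 to 22.7 CPM and at 187, 186 and 91.3. The groups did not overlap for any of the 3, again as the naming rule asked. Among the 6 ExE marker genes listed, which the study had named from these same embryos and which are therefore not independent evidence, 4 were tested, Trap1a and Rhox5 rose, where 0.401% of all genes did, and Apoe and Krt8 were at log2 fold changes of 0.15 and −2.08 without passing the test. The filter on low counts bears on Trap1a and Rhox5 as on the germline genes, and nothing is read from this count.

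Of 19 imprinted genes tested, 2 were called, where 0.656% of all genes were. H19, a noncoding RNA made from the maternal allele, rose from 90.8 to 428 CPM in WT to 1368, 1535 and 1174 in Dnmt1 KO. Grb10, a brake on insulin signalling that is maternally expressed in most tissues (chr11:11930508-12038683, minus strand), fell from 48.1 to 127 CPM in WT to 2.53, 0 and 1.43 in Dnmt1 KO (−5.12, SE 0.75, edgeR adjusted p = 0.000846). The median log2 fold change over the 19 was 0.32, beside −0.02 over all genes tested. In the endothelial-marker members alone, 4 of 19 were called, where 1.11% of all genes were: H19 and Grb10 again, Impact, a regulator of translation (log2 fold change 1.53, SE 0.30, edgeR adjusted p = 0.00447), and the noncoding RNA Kcnq1ot1 (1.27, SE 0.27, edgeR adjusted p = 0.00962). The median there was 0.43, beside −0.02 over all genes tested.

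Outside these groups, Noct, a circadian regulator of NADP(H) metabolism, had the smallest p, at 0 to 35.5 CPM in WT and 152, 252 and 158 in Dnmt1 KO (log2 fold change 3.76, SE 0.33, edgeR adjusted p = 3.55e-06). The chaperones Hsph1 and Hsp90aa1 rose by 1.80 and 1.05 on the log2 scale and Rspo3, a Wnt agonist, by 3.21. The mitosis genes Mki67 and Cenpe rose by 1.17 and 1.32, the only ones called among 16 mitosis and 16 replication genes, where 0.656% of all genes were, and the blood progenitor factor Gata2 by 2.55. These 3 calls were fragile. Of the alternatives that tested them, Cenpe lost its call in 17 of 34, Gata2 in 15 of 34 and Mki67 in 12 of 34. Noct lost its call in 1 of 33 and Hsph1 in 4 of 35. The Y-linked Ddx3y was called higher as well, in a comparison where all 3 KO embryos and 1 of 7 WT embryos had Y-linked RNA. Lower genes whose groups did not overlap included the interleukin 11 receptor gene Il11ra1 (−2.14), the purine enzyme gene Pnp (−1.38), the vesicle fusion gene Vamp8 (−1.39) and the actin nucleation subunit Arpc1b (−1.19). Il11ra1 lost its call in 4 of 34 alternatives, Pnp in 12 of 35, and Vamp8 and Arpc1b in 9 and 14 of 35, with a turned sign in 2 more for each of the last 2. Of the myeloid lists, 0 of 10 transcription factors, 0 of 7 macrophage receptors, 0 of 18 lysosome genes, 0 of 5 interferon response genes and 0 of 4 MHC class II genes that were tested passed edgeR's test in any KO group. With 0.656%, 0% and 0.0547% of all genes called in Dnmt1, Dnmt3a and Dnmt3b KO, lists of this size would hold about 0 calls, and nothing is read from these counts. In the endothelial-marker members alone Cyba, a subunit of the phagocyte oxidase, fell by 2.66 on the log2 scale in Dnmt1 KO (edgeR adjusted p = 0.00126).

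Genes of other cell types varied beside the Dnmt1 KO result. The summed level of 7 globins in the members was 79.5 to 875 CPM in WT and 187 to 3957 CPM in Dnmt1 KO, that of 7 endothelial markers 284 to 1363 CPM and 766 to 910 CPM, and that of 7 erythroid markers 4.37 to 34.1 CPM and 20.2 to 77.0 CPM. Of the 12 marker lists of other blood and tissue cells, the 7 megakaryocyte markers were the only one without overlap, at 104.7 to 204.3 CPM in WT and 50.6 to 98.7 CPM in Dnmt1 KO. Their part in the result was not tested. With the share of Y-linked counts as a covariate 10 genes were called, 8 of which were in the list above: Rpl39l, Sycp1, Tex19.1, Trap1a, Rhox5, Gm21887, Grb10 and Mki67. In the endothelial-marker members alone, a choice made after seeing the data, 60 of 5400 genes were called (1.11%), with 30 higher (0.556%) and 30 lower (0.556%), among them Dnmt1 itself at −1.84 (edgeR adjusted p = 0.00771) and Cd34 at −1.87. Without Dnmt1 KO 3 only 4 genes were called, namely Noct, Rpl39l, Gm21887 and Trap1a, and the count was 14 without WT 1, 16 without WT 6 and 19 without Dnmt1 KO 2. No gene was called with a rule of 5 of 7 markers or with every cell thinned to 3000 UMIs, where few members or genes were left. No gene was called either without members holding 4 of 7 markers of another class, which takes out most endothelial-marker cells. There H19 and Hsp90aa1 turned to −5.52 and −0.62, Vamp8 and Arpc1b to 0.26 and 0.54, and Gabarap to 1.01. Grb10 and Rpl39l did not turn in any alternative that tested them, at −6.39 to −4.36 and 7.04 to 10.9.

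**Figure D5:**
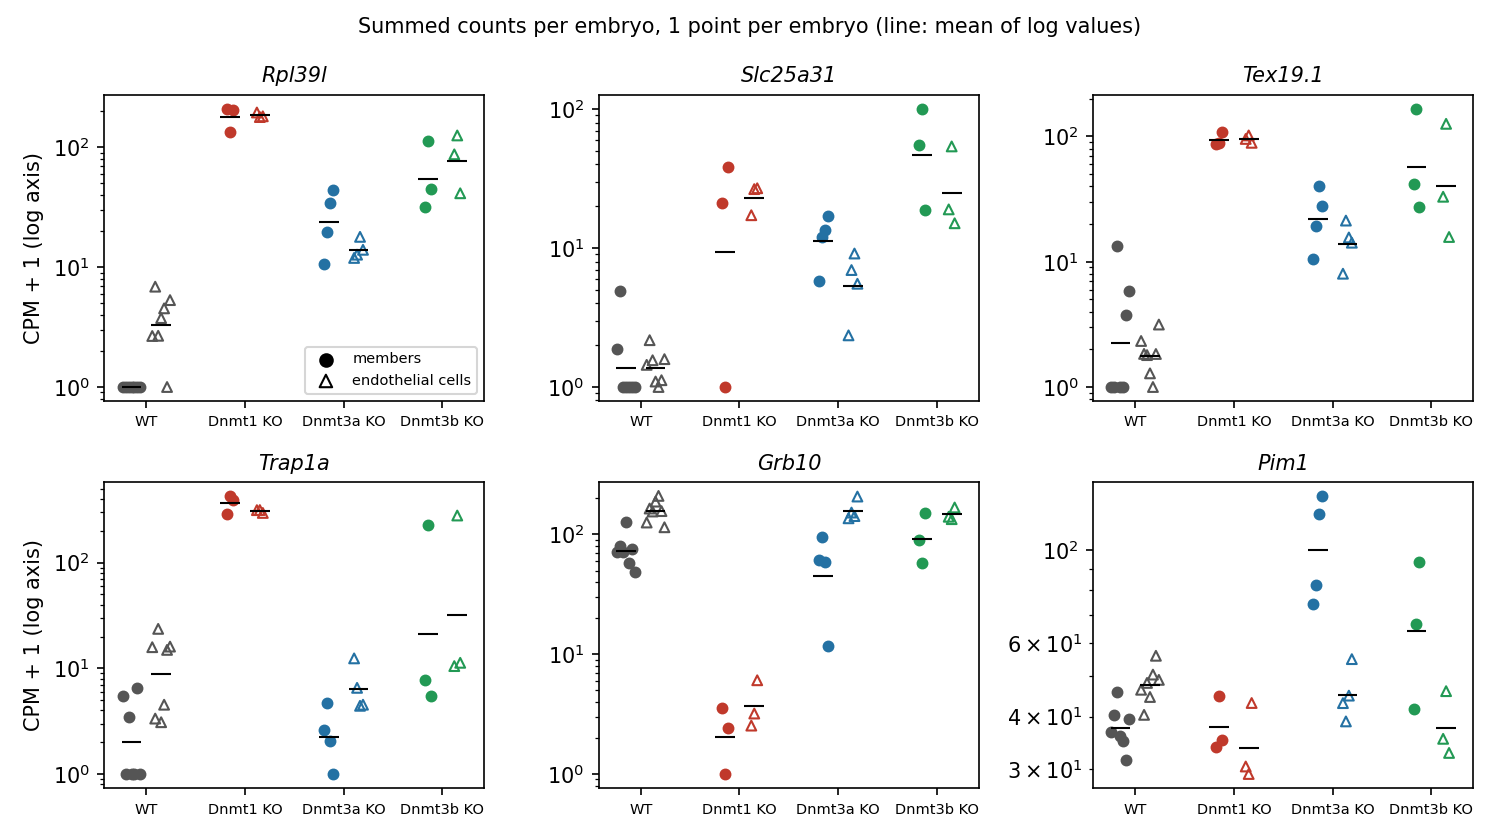
CPM + 1 (log axis) of 6 genes in counts summed per embryo, for members (filled circles) and for endothelial cells outside the rule (open triangles), with 1 point per embryo and lines at the mean of the log values. Rpl39l lay above every WT embryo in all KO embryos, Slc25a31 and Tex19.1 did so in Dnmt3b KO, Trap1a was high in Dnmt1 KO and in 1 Dnmt3b KO embryo, Grb10 lay below WT in Dnmt1 KO, and Pim1 lay above WT in the members of Dnmt3a KO.

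Dnmt3b KO members differed from WT in 3 genes, all higher (0.0547% of 5487 tested, with 243 genes at an unadjusted p under 0.05), and each was also called higher in Dnmt1 KO. Both comparisons share the WT embryos, so the overlap is not independent support. Rpl39l was at 0 in WT and at 30.5, 112 and 44.1 CPM in Dnmt3b KO (embryos 11, 12 and the pair 1 and 2), at least 64.2-fold higher than 3 counts over the WT group (37.2-fold without WT 1). Slc25a31 was at 0 to 3.94 CPM in WT and at 54.3, 99.4 and 17.7 in Dnmt3b KO (log2 fold change 5.80, SE 0.75, edgeR adjusted p = 0.00147). Tex19.1 was at 0 to 12.5 CPM in WT and at 40.7, 165 and 26.5 in Dnmt3b KO (4.73, SE 0.72, edgeR adjusted p = 0.00450). None of the 3 overlapped.

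Dnmt3b KO 12 was the highest of its group for all of them. It was also the single KO embryo without Y-linked RNA and the one counted with another Cell Ranger version. Without it no gene was called by edgeR. Over all alternatives that tested them, the log2 fold changes were 6.37 to 8.32 for Rpl39l, 3.96 to 6.41 for Slc25a31 and 3.40 to 6.06 for Tex19.1. For genes at or near 0 in WT such values depend on the prior count. In the endothelial-marker members alone 4 of 5400 genes were called (0.0741%), the same 3 and Trap1a. No gene was called either with a rule of 5 of 7 markers, after thinning, without members holding 4 of 7 markers of another class, or when only Dnmt3b KO and WT were fitted. In the last 3 of these Rpl39l, Slc25a31 and Tex19.1 fell under the filter on low counts and were not tested. Tex19.1 missed the threshold in 9 of the 33 alternatives that tested it, among them each fit without WT 1, 2, 4, 5, 6 or 7 (edgeR adjusted p = 0.0112 to 0.0204). Trap1a and Rhox5 were high in Dnmt3b KO 12 alone, at 228 and 740 CPM against at most 6.79 and 26.5 in the other Dnmt3b KO libraries, and were not called (edgeR adjusted p = 0.0248 and 0.0938).

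Dnmt3a KO members gave no called gene (0%; 255 genes at an unadjusted p under 0.05, and 3 called higher by DESeq2). Rpl39l was nonetheless seen in all 4 embryos, at 9.56, 18.5, 33.3 and 42.7 CPM, at least 21.4-fold higher than 3 counts over the WT group (12.4-fold without WT 1), with an edgeR adjusted p of 0.0408. Pim1, a kinase induced by cytokine signals (chr17:29490753-29496112, plus strand), had the smallest p. It lay at 30.5 to 44.9 CPM in WT and at 73.3, 81.2, 121 and 133 in Dnmt3a KO, with no overlap, at a log2 fold change of 1.42 (SE 0.21, edgeR adjusted p = 0.0105). The other 3 of the 5 smallest p-values were those of the sex-linked genes Ddx3y, Xist and Eif2s3y, at 4.78, −5.62 and 3.73. Of the 12 marker lists, the summed level of 7 granulocyte and mast cell markers did not overlap, at 0 to 16.7 CPM in WT and 24.9 to 225 CPM in Dnmt3a KO. The 225 CPM was that of Dnmt3a KO 2, where the granzyme cell alone had 27 UMIs of Mcpt8 and 90 of Ctsg. That cell's origin was not tested, and the lack of overlap rests on it. The summed level of the globins was 79.5 to 875 CPM in WT and 214 to 6486 CPM in Dnmt3a KO. The part of these lists in the result was not tested.

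The promoters of the 3 genes called in Dnmt3b KO are shown because each of them also rose in Dnmt1 KO, and because CpG sites are where these enzymes act. Each is the 250 bases before the transcript start, 5′ to 3′ on the sense strand of GRCm38.p6 from RefSeq, with CpG sites in capitals. They lie at chr16:10169978-10170227, chr3:40708621-40708870 and chr11:121145893-121146142, all on the plus strand.
Rpl39l: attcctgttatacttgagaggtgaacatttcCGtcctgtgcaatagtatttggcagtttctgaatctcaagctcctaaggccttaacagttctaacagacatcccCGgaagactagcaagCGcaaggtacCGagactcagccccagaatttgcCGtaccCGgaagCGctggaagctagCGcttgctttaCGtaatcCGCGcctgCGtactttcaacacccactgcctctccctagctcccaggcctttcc
Slc25a31: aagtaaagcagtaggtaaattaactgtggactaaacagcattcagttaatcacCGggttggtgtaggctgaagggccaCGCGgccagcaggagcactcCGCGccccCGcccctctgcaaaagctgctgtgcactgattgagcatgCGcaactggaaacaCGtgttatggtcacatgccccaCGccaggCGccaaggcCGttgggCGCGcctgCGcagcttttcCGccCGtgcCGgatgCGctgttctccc
Tex19.1: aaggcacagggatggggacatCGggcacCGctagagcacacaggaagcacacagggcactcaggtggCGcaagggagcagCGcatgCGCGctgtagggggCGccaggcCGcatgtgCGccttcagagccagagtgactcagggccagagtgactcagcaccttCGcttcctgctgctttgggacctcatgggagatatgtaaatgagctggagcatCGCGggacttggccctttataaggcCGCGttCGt

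These windows held 12, 18 and 15 CpG sites, against a median of 6 over 32841 promoters of the same length. At least as many were found in 33.5%, 21.7% and 27.3% of all promoters, so the counts are above the median but common. The 17 genes higher in Dnmt1 KO that had a promoter in the table gave 20 windows, with 2 (Noct) to 39 (1 of those of Tmem267) CpG sites and a median of 15.5. The E-box CACGTG, searched on both strands, was found in the Slc25a31 window and in 6.02% of all promoters. The E2F core GCGGGA, searched likewise, was found in the Tex19.1 window and in 16.9%. Such matches are a description of the letters only, and methylation was not measured in these libraries.

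The genes called were then looked up by set. Rpl39l had a UMI in 8 of 8 endothelial-marker cells of Dnmt1 KO at 208 CPM, in 14 of 42 of Dnmt3a KO at 24.6 CPM and in 17 of 25 of Dnmt3b KO at 80.8 CPM, and in 0 of 45 of WT, which allows up to 1.16 CPM. Tex19.1 had a UMI in 8 of 8, 20 of 42, 18 of 25 and 5 of 45. In the Lyz2-high cells, whose origin was not tested, Rpl39l had no UMI in any group. For the 12 distinct such cells of Dnmt3b KO, with 93938 UMIs when shared barcodes were counted once, this allows up to 31.9 CPM, below the level in the endothelial-marker cells of that group (81.6 CPM in 22 distinct cells). All but 1 of the 12 came from Dnmt3b KO 1 and 2, whose members together gave 44.1 CPM. Tex19.1 had 1 UMI in 1 of these 12 cells. For the 2 cells of Dnmt1 KO, with 10061 UMIs, it allows up to 298 CPM, so a difference was not detectable there. The 4 distinct granzyme cells had no UMI of Rpl39l, Tex19.1, Trap1a or Sycp1, and that of Dnmt3a KO 2 had 1 UMI of Slc25a31.

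Counting all 34 germline genes, an endothelial-marker cell had UMIs for a median of 1 of them in WT and of 17.5, 3 and 5 in the Dnmt1, Dnmt3a and Dnmt3b KO groups. In the same order, at least 4 were found in 2 of 45, 8 of 8, 17 of 42 and 17 of 25 cells, the last being 22 distinct cells. Depth differed between these cells, with medians of 51283, 121862, 44108.5 and 32816 UMIs, and the deeper Dnmt1 KO cells would show more genes at the same level. The summed level of the list had medians of 11.4, 615, 80.1 and 251 CPM. It ran from 0 to 60.1 CPM in WT cells and from 526 to 1128 CPM in Dnmt1 KO cells, which did not overlap, and from 0 to 436 CPM in Dnmt3a KO and 43.6 to 1292 CPM in Dnmt3b KO. Cells of 1 embryo are not replicates, so these values carry no test.

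Finally, the members were compared with the endothelial cells of the same embryos, 3302 cells outside the rule with at least 4 of the 7 endothelial markers. This asked whether a genotype moved a gene differently in the 2 compartments. Of the 158 members, 102 also had at least 4 of these 7 markers and were kept apart only by the leukocyte rule. The compartments are therefore not read as distinct cell types. The planned fit, on embryos with 10 or more cells in both, called 0 of 11963 genes for Dnmt3a KO and for Dnmt3b KO (446 and 576 at an unadjusted p under 0.05, and 0 and 2 by DESeq2). Over all embryos 9552 genes were tested by edgeR's interaction term. For Dnmt1 KO 3 were called (0.0314%), for Dnmt3a KO 2 (0.0209%) and for Dnmt3b KO 0 (0%; 318 at an unadjusted p under 0.05, 1 by DESeq2).

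For Dnmt3a KO the 2 genes called were Pim1 and Spp1. In endothelial cells Pim1 lay at 39.4 to 54.8 CPM in WT and at 42.1, 37.9, 43.9 and 53.8 in Dnmt3a KO, so that the groups overlapped there and not in the members. The interaction was 1.53 (SE 0.24, edgeR adjusted p = 0.00837). This call was near the limit: with any 1 embryo left out, 0 genes were called for Dnmt3a KO, except that both calls held without Dnmt3a KO 1, Dnmt3b KO 11 or the pair Dnmt3b KO 1 and 2. Within the endothelial-marker members Pim1 was at 31.3 CPM in WT and 95.5 CPM in Dnmt3a KO, pooled over cells. Spp1 was called for both Dnmt1 KO (13.23, SE 1.66) and Dnmt3a KO, but 403 and 519 of its UMIs came from Dnmt1 KO 1 and Dnmt3a KO 2, which held granzyme cells, and Dnmt3b KO 1 and 2, which shared a granzyme cell, had 9 and 4. No other embryo had more than 2. Without Dnmt1 KO 1 no gene was called for Dnmt1 KO, and 1 was called without WT 1 or without Dnmt1 KO 3. For Dnmt1 KO the other genes called were 8030474K03Rik and Nrgn. 8030474K03Rik was at 0.587 to 1.84 CPM in WT endothelial cells and at 18.6, 15.4 and 17.1 in Dnmt1 KO, while the members lay at 3.94 to 22.7 and at 15.2, 10.96 and 9.99. Nrgn, a calmodulin-binding protein, was at 10.6 to 17.8 CPM in WT endothelial cells and at 52.4, 44.9 and 53.5 in Dnmt1 KO, and the members overlapped at 52.3 to 159 and at 93.6, 65.8 and 118. The interaction was −4.21 (SE 0.58) for the first and −1.91 (SE 0.31) for the second, with edgeR adjusted p of 0.000952 and 0.00620.

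Several genes called in the Dnmt1 KO members lay apart between the groups in endothelial cells too. Rpl39l was at 193, 177 and 180 CPM in the endothelial cells of Dnmt1 KO and at 0 to 5.86 in WT, and Tex19.1 at 94.5, 101 and 88.0 against 0 to 2.15. Grb10 was at 1.54, 2.20 and 5.06 CPM against 114 to 209. Trap1a was at 313, 314 and 295 CPM against 2.09 to 22.6, and H19 at 1668, 1577 and 1339 against 640 to 1096. The interaction of Trap1a was 2.37 (SE 0.41), a larger log2 change in the members, and narrowly missed the threshold (edgeR adjusted p = 0.0103). In WT, Trap1a had 8 UMIs over the 45 endothelial-marker members and none in the Lyz2-high members. This log2 difference thus rests on a WT level near the floor, and no stronger induction in the members is read from it. The interaction of H19 was 1.66 (SE 0.36, edgeR adjusted p = 0.0577), again a larger log2 change in the members. The interaction terms of Rpl39l, Tex19.1 and Grb10 did not pass the test (edgeR adjusted p = 0.366, 0.663 and 1). None of these shows that the size of change was the same in both.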

How the data were processed

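Single-cell RNA libraries (10x Genomics 3′, version 3, 16000 cells loaded, 1 E8.5 embryo each) had been deposited by the authors as UMI counts per gene and barcode. Per the file headers, 17 libraries came from Cell Ranger 3.1.0 and 1 from 5.0.0, and 4 were mapped to a combined human and mouse reference, whose human genes were dropped here. The build is mm10 (GRCm38).

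Groups came from the labels. Members were cells with 3000 or more mouse UMIs and a UMI for 4 or more of 7 genes; they and all gene lists were chosen with earlier results of these data known. No doublet caller was run, so doublets of a blood and another cell remain possible. Counts were summed per embryo and fitted for all genes with edgeR 4.0.16 (quasi-likelihood, TMM, R 4.3.3, limma 3.58.1), with DESeq2 1.42.0 as an alternative. A gene was called where its adjusted p lay below 0.01 and it moved by 1 or more on the log2 scale. Shares were compared by exact permutation over all splits of the embryos, written in Python 3.11.15 with numpy 2.4.6 (pandas 2.3.3 and scipy 1.17.1 were also loaded). Bounds for genes at 0 used 3 counts over the group. Scripts were tested on simulated data.

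Named genes were the 3 methyltransferases; per comparison, up to 10 called genes in each direction whose KO embryos all lay beyond the WT range, or the 5 smallest p-values where fewer than 5 were called; called members of the lists; and called interaction genes. The 25 genes that most marked the members were also ranked, without a test. Marker genes of the sets and the genes described by set were picked after their values were seen. Alternatives changed the member rule, filters, scaling, covariates and libraries. Member counts per embryo ran from 88097 to 1120520 UMIs, and the smaller sums give the less precise values. Since each library was 1 embryo, the p-values measure spread between embryo sums or shares. With 1 to 22 members per embryo, this spread includes the sampling of few cells and the uneven mix of the sets. These parts were not separated from differences between embryos. The replicate numbers did not pair embryos: 10 pairs with the same number had correlations of −0.28 to 0.29.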

Additional observations from a re-analysis of the deposited data

Results flagged for a closer look

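An extreme value far from the rest of its group, by Dixon's test, was found in 13 of 69 groups of embryos examined. The nominal rate of that test, about 1 in 20, is for independent and normally spread values. These groups share the same embryos and hold low counts, so no excess over that rate is read from the 13. In WT, the 2 members of WT 4 had a median of 114432 UMIs, and the same embryo was highest for Cenpe (218 CPM) and Grb10 (127 CPM). WT 2, the WT embryo with Y-linked RNA, was highest for Ddx3y (7.88 CPM), Eif2s3y (31.5 CPM), Noct (35.5 CPM) and Slc25a31 (3.94 CPM). Tex19.1 was highest in WT 3 (12.5 CPM), and Gabarap in WT 1 (361 CPM). In Dnmt3a KO, all 4 Lyz2-high members came from Dnmt3a KO 2, which also stood apart for Xist (27.7 CPM), and Dnmt3a KO 14 did so for Brd1 (42.7 CPM) and Hsp90aa1 (3688 CPM).

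The effect of a KO differed between members and endothelial cells, by edgeR's interaction term, for 5 gene and group pairs. In Dnmt1 KO these were Spp1 (13.23 on the log2 scale), 8030474K03Rik (−4.21) and Nrgn (−1.91), and in Dnmt3a KO Spp1 (8.496) and Pim1 (1.53). Both Spp1 values rest on single embryos that held granzyme cells.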

How the results depend on the processing

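The member share kept its direction in 48 of 60 alternatives, all without a call. It turned with 3 of 7 markers (Dnmt3a KO 0.22, Dnmt3b KO 0.20), 5 of 7 markers (Dnmt1 KO −0.33), 5000 UMIs (Dnmt3a KO 0.17) and without globin-rich cells (Dnmt1 KO −0.052), and leaving out an embryo gave −0.58 to 0.99 for Dnmt1 KO, −0.29 to 0.18 for Dnmt3a KO and −0.58 to 0.13 for Dnmt3b KO.

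With at least 10 members per embryo, Dnmt3a KO gave 5 calls at 5000 UMIs, 1 by DESeq2, 96 without a filter, 9 with the Y-linked covariate, 4 with only both groups and 0 to 4 leaving out an embryo. Dnmt3b KO gave 3 calls with 3 markers, 2 by DESeq2, 132 without a filter and 0 to 1 leaving out an embryo; there Dnmt3a turned to −0.61 with 3 markers and −1.22 with the Y-linked covariate, and Dnmt1 to −0.14 with the reference covariate.

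Over all embryos, Dnmt1 KO gave 140 calls with 3 markers, 0 with 5, 0 thinned to 3000 UMIs, 0 without members holding 4 of 7 markers of another class, 58 by DESeq2, 142 without a filter, 10 with the Y-linked covariate, 21 with only both groups, 60 in endothelial-marker members and 4 to 39 leaving out an embryo. With 5 markers Vamp8 turned to 0.23, Arpc1b to 0.51 and Gabarap to 0.37. Without members of another class Hsp90aa1 turned to −0.62, Vamp8 to 0.26, Arpc1b to 0.54, Gabarap to 1.01 and H19 to −5.52. That alternative removes most endothelial-marker cells. Dnmt3a turned to −0.37 with the Y-linked covariate. Dnmt3a KO gave 1 call with 3 markers, with the quality limits, with Dnmt3b KO 2 alone, with the Y-linked and with the reference covariate, 3 by DESeq2, 23 without a filter and 0 to 3 leaving out an embryo; Dnmt1 turned to −0.25 with 5 markers. Dnmt3b KO gave 13 calls with 3 markers, 0 with 5, 0 thinned, 0 without members of another class, 25 without a filter, 6 with the Y-linked covariate, 0 with only both groups and 0 to 5 leaving out an embryo; Dnmt3b turned to −0.094 without Dnmt3b KO 12 and was up to 0.434 leaving out others.

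With a replicate block, Dnmt1 KO gave 8 calls, Dnmt3a KO 0 and Dnmt3b KO 0, Dnmt3a turned to 1.05 in Dnmt3b KO, and the share differed by 0.03 in Dnmt1 KO and −0.16 in Dnmt3a KO; the numbers do not pair the embryos. No block could be fitted with at least 10 members.

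For the interaction with at least 10 cells, Dnmt3a KO gave 83 calls without a filter and 0 to 21 leaving out an embryo, and Dnmt3b KO 2 by DESeq2, 88 without a filter and 0 to 6. Over all embryos Dnmt1 KO gave 7 by DESeq2, 112 without a filter, 7 without members of another class, 0 thinned and 0 to 6 leaving out an embryo; Dnmt3a KO gave 1, 51, 1, 0 and 0 to 2, and 0 with relative log expression factors; Dnmt3b KO gave 1 by DESeq2, 22 without a filter and 0 to 1. Where not stated in the construction, the cause was not tested. A minimum of 25 members, the Dnmt1 KO comparison with at least 10 members, and there the thinned, 5-marker and other-class alternatives could not be fitted. With 1 to 22 members per embryo, low genes could not be compared.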
